A study of Homo sapiens with 2 samples.

Results

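The 39 human HOX genes, out of 38606 genes in the deposited count matrix, were taken by symbol: HOX, a letter from A to D and a number. All 39 had a row in the matrix. The choice used no expression value.

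HOX genes encode homeodomain transcription factors that sit in gene clusters on separate chromosomes. In the embryo, genes at one end of each cluster (low numbers) are switched on early and towards the head, and genes at the other end (high numbers) later and towards the tail. Genes with the same number in different clusters descend from 1 ancestor and form a paralogue group. Adult fibroblasts and stromal cells keep a HOX pattern that differs with the place in the body they came from, and so the pattern is used as a record of positional identity.

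The cells were human mesenchymal stem cells of fat tissue, bought from a supplier, and the fat depot was not stated in the labels. They were grown on plates, starved overnight and then either left without treatment or given transforming growth factor beta 1 (TGFB1), a secreted protein whose receptors activate SMAD transcription factors, at 10 ng/mL for 24 hours. Each condition was a single 10x single-cell library, labelled UNTR and TGFB and named untreated and TGFB1 here, of 8101 and 12555 cells. The comparison of libraries therefore has no replicate check, handling and treatment cannot be told apart, and every interval is a 95% interval for counting error that compares these libraries only.

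Transcripts were counted as unique molecular identifiers (UMIs), summed over cells and given as CPM, counts scaled to the library total, a scale that counts tagged molecules and does not divide by transcript length. The libraries held 169011524 and 208991941 UMIs, at a median of 19249 and 15134 UMIs per cell. A sum of 0 allows up to 3 UMIs, which is 0.0178 CPM untreated and 0.0144 CPM with TGFB1. All 10 stromal markers examined (PDGFRB, THY1, COL1A1 and others) reached 5 CPM and together took 26616 and 25708 CPM. Of these, 5 were at least 1.5-fold lower with TGFB1 and 0 higher, with a median log2 ratio of -0.53 and 3 ratios above 1. Over all genes reaching 5 CPM in either library, 14.2% were lower and 8.45% higher. PDGFRA was at 182 and 82.4 CPM and NT5E at 282 and 154 CPM. The 5 fat cell markers took 0.160 and 0.0813 CPM in all, with ADIPOQ at 0 UMI in both libraries. Other marker sums were lower in the TGFB1 library: epithelial 677 against 194 CPM (nearly all KRT19), melanocyte and neural crest 48.1 against 17.9 CPM (nearly all MITF), mural 113 against 69.6 CPM, immune 25.3 against 17.1 CPM and endothelial 13.9 against 8.65 CPM. Their part in the HOX differences below was not tested.

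In GENCODE release 29 (GRCh38), the HOXA genes lie on chromosome 7 from 27092993 to 27200106, the HOXB genes on chromosome 17 from 48528526 to 48729178, the HOXC genes on chromosome 12 from 53938765 to 54056030 and the HOXD genes on chromosome 2 from 176092891 to 176190907. The genes are tightly packed: 18 of the 39 shared exon sequence with another gene on their own strand and 19 with an antisense gene. HOXC4, HOXC5 and HOXC6 share exons with each other. Reads from such stretches could have been split between genes or dropped, and the counts do not show which.

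Promoters, taken as 250 bases before to 50 after a transcript start, are shown for the HOX genes with the highest level in their cluster and for those with the largest and smallest ratio between libraries, where the RefSeq table (GRCh38.p14) held them. The table held 20 of the 39 genes, with 27 windows. HOXC8 and HOXB2, the highest genes of the HOXC and HOXB clusters, are named only. HOXC4 and HOXC5 have 1 window in common, chr12:54016638-54016937 on the plus strand, while their ratios between the libraries lay on opposite sides of 1. Capitals mark TATAAA or its reverse complement.
HOXC4 and HOXC5, chr12:54016638-54016937, plus strand: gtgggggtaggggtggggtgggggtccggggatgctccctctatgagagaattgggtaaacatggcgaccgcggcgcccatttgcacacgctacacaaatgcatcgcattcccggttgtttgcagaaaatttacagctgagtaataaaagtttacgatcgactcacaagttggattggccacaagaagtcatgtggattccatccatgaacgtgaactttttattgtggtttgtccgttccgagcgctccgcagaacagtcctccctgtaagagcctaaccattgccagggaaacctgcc
HOXD3, chr2:176157057-176157356, plus strand: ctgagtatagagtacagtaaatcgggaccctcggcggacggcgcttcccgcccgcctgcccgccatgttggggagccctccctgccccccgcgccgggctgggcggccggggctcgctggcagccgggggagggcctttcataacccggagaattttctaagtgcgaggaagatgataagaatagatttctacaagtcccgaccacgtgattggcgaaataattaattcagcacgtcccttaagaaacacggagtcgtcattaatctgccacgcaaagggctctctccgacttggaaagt
HOXD8, chr2:176129455-176129754, plus strand: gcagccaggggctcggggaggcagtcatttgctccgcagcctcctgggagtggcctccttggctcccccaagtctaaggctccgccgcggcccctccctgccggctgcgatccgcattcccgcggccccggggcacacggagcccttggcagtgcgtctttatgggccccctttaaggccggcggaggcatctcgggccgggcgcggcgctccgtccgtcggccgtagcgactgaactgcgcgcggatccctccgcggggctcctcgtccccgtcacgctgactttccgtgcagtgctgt
HOXA10, first start, chr7:27179812-27180111, minus strand: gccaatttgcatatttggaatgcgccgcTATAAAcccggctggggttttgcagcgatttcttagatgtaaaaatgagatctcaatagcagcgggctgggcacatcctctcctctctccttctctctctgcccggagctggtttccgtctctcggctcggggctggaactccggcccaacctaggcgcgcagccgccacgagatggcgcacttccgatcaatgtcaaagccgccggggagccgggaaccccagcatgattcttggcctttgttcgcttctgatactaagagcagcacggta
HOXA10, second start, chr7:27174271-27174570, minus strand: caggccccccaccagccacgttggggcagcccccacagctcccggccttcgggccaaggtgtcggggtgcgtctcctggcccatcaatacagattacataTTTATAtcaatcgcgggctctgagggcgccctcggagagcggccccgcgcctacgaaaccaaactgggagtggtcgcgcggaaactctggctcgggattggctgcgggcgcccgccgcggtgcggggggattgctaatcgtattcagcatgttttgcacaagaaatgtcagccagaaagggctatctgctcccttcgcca

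The windows were searched on both strands for CAGAC (a half-site bound by SMAD proteins), TGATTNAT (bound by HOX proteins together with PBX), TGACAG (bound by MEIS) and TATAAA (the TATA box). A TGACAG followed by AC also holds CAGAC. Among the windows printed, only those of HOXA10 held any match, 1 TATAAA each. A match is a run of letters only: its distance from the transcript start was not used, so no match is called a working TATA box. Over the 27 HOX windows, 11 held CAGAC, 2 TGATTNAT, 4 TGACAG and 5 TATAAA. Among all 35116 windows of the table, the shares were 45.3%, 2.82%, 15.8% and 11.5%. The HOX windows were not independent: HOXA3 had the most, and most of its windows held CAGAC. The window common to HOXC4 and HOXC5 was counted for each gene. The HOXD8 window had 34 CpG and 71.7% G and C, and the HOXC4 and HOXC5 window 15 CpG and 51.7%, against medians of 14.0 and 58.7% over all windows.

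The cells carried a broad HOX pattern with its peak in the middle of the clusters and a sharp stop before group 12. A paralogue group counted as expressed from 1 CPM over its members, and groups 2 to 11 passed in both libraries. Group 13, the most tail-ward, summed to 0.0473 and 0.0861 CPM. Group 12 had no UMI in either. Group 8 was the highest at 218 and 249 CPM, followed by group 9 at 71.1 and 71.0 CPM, group 6 at 58.6 and 59.8 CPM and group 7 at 50.4 and 51.8 CPM. In these 4 groups the libraries differed by less than 1.5-fold.

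Among the lower groups, group 3 was at 43.9 and 39.1 CPM, group 2 at 36.2 and 53.2 CPM and group 10 at 33.0 and 27.6 CPM. Group 4 was at 21.7 and 21.8 CPM, group 5 at 15.9 and 27.2 CPM and group 11 at 2.57 and 2.37 CPM. Group 5 was the 1 expressed group past 1.5-fold between libraries, with a ratio of 1.71 (1.63 to 1.79). Group 2 followed at 1.47 (1.42 to 1.52), almost all of it from HOXB2.

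Of the single genes, 16 reached 5 CPM in at least 1 library and are called measured below, 6 lay between 1 and 5 CPM, 14 had UMIs but stayed under 1 CPM in both libraries, and HOXB1, HOXC12 and HOXD12 had no UMI. The HOXC cluster held 59.7% of HOX UMIs in the untreated and 59.2% in the TGFB1 library, and HOXC8 was most of it. HOXC sums were 330 and 357 CPM, HOXB sums 121 and 141 CPM, HOXA sums 66.3 and 76.9 CPM and HOXD sums 34.8 and 28.5 CPM. The HOX total was 552 CPM untreated and 604 CPM with TGFB1, a ratio of 1.09 (1.08 to 1.10).

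**Figure D1:**
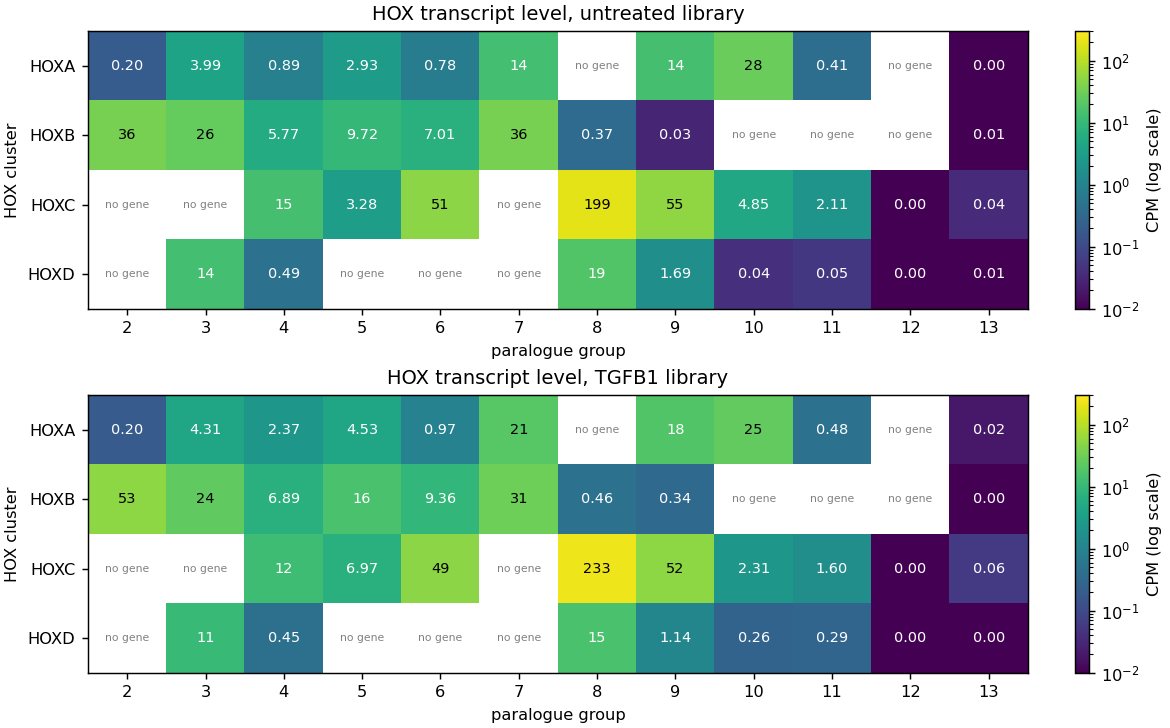
Level of the HOX genes of paralogue groups 2 to 13 in CPM (colour on a log scale, value in the cell) by HOX cluster (rows) and paralogue group (columns), in the untreated (top) and TGFB1 (bottom) library; "no gene" marks paralogues that humans lack. HOXC8 is the brightest cell in both maps (199 and 233 CPM), and groups 12 and 13 are dark in both.

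Between the libraries, 2 of the 16 measured HOX genes were at least 1.5-fold higher with TGFB1, HOXB5 and HOXC5, against 8.45% of all 10928 measured genes. None of the 16 was at least 1.5-fold lower, against 14.2% of all measured genes. HOXC5, at 3.28 and 6.97 CPM, counted as measured only through the TGFB1 library, where it was higher. HOXC10, at 4.85 and 2.31 CPM, fell just under the minimum and was not among the 16. The median log2 ratio of the 16 was 0.09, and that of all measured genes -0.10. Scaling by TMM or by median-of-ratios factors moved the median over all genes to 0.06 and 0.09. It raised the number of higher HOX genes to 4 (HOXA7 and HOXB2 added) and 5 (HOXB6 added too), still with none lower. Ratios near 1 turned with the scaling: HOXB3, HOXC6 and HOXC9 were below 1 on the CPM scale and above 1 with both factors, and HOXA10 with median-of-ratios factors only. The share of all genes called higher was then 11.8% and 12.98%, and lower 9.75% and 8.92%.

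Genes of the head-ward groups 2 and 3 differed little apart from HOXB2. HOXB2, which patterns the hindbrain, had 6085 UMIs in the untreated and 11077 in the TGFB1 library, or 36.0 and 53.0 CPM, a ratio of 1.47 (1.43 to 1.52), just under the 1.5-fold line. HOXB3, also a hindbrain and neck gene, was at 26.0 and 24.1 CPM (4394 and 5032 UMIs), a ratio of 0.926 (0.889 to 0.965). HOXD3, of the same paralogue group, was at 14.0 and 10.8 CPM (2360 and 2248 UMIs), a ratio of 0.770 (0.727 to 0.816), the smallest among the measured HOX genes. HOXA3, needed for the thymus and parathyroid, was low at 3.99 and 4.31 CPM.

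Among the HOX genes at 1 CPM or more, the largest ratios were those of genes in groups 4 and 5. HOXC5, the gene with the largest ratio among those measured, had 555 and 1457 UMIs, or 3.28 and 6.97 CPM, a ratio of 2.12 (1.92 to 2.35). HOXB5, which acts in the lung and in nerve precursors of the gut, had 1642 and 3289 UMIs, or 9.72 and 15.7 CPM, a ratio of 1.62 (1.53 to 1.72). The third paralogue of group 5, HOXA5, known from the lung and the spine of the neck, was low at 2.93 and 4.53 CPM, a ratio of 1.55 (1.38 to 1.73). All 3 members of the group thus had a ratio above 1.5. After thinning each cell to 7500 UMIs, which left out 455 untreated and 3225 TGFB1 cells, HOXC5 was seen in 2.34% and 4.99% of cells (6.46% and 10.4% before), HOXB5 in 6.42% and 10.5% (17.0% and 20.7% before), and HOXA5 in 2.08% and 3.38% (5.73% and 6.85% before).

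The other measured genes of groups 4 to 6 had smaller ratios or ratios below 1. HOXC4 was at 14.5 and 12.1 CPM (2459 and 2535 UMIs), a ratio of 0.834 (0.788 to 0.882), lower where HOXC5, with which it shares exons, was higher. HOXC6, a gene of the forelimb and upper chest level, was at 50.8 and 49.5 CPM (8588 and 10344 UMIs), and its ratio of 0.974 (0.946 to 1.00) included no difference. HOXB4, known for expanding blood stem cells, was at 5.77 and 6.89 CPM (975 and 1439 UMIs), a ratio of 1.19 (1.10 to 1.30). HOXB6 was at 7.01 and 9.36 CPM (1185 and 1957 UMIs), a ratio of 1.34 (1.24 to 1.44). HOXA4, low in both, had 150 and 495 UMIs, or 0.888 and 2.37 CPM, a ratio of 2.67 (2.22 to 3.23), the largest among the 22 HOX genes at 1 CPM or more.

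In groups 7 and 8, which mark the trunk, HOXC8 set the scale of the whole family. HOXC8, which patterns the chest and the nerves to the forearm, had 33648 and 48727 UMIs, or 199 and 233 CPM, a ratio of 1.17 (1.15 to 1.19). Thinned cells held a HOXC8 UMI in 72.2% of cases without TGFB1 and in 80.4% with it. At full depth the shares were 89.7% and 84.3%, with the deeper untreated library ahead. HOXD8 was at 18.5 and 15.2 CPM (3127 and 3185 UMIs), a ratio of 0.824 (0.784 to 0.866), and HOXB8 was near absent at 63 and 97 UMIs. HOXB7 was at 36.4 and 31.1 CPM (6160 and 6508 UMIs), a ratio of 0.854 (0.825 to 0.885), whereas its paralogue HOXA7 was at 14.0 and 20.6 CPM (2365 and 4308 UMIs), a ratio of 1.47 (1.40 to 1.55). The HOXB7 and HOXA7 intervals lay on opposite sides of 1, so the sum of group 7 differed less than either gene.

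Groups 9 to 11, which mark the lower trunk and limbs, were carried by HOXC9, HOXA10 and HOXA9. HOXC9, which sets the chest level of the spinal cord, was at 55.0 and 51.5 CPM (9292 and 10764 UMIs), a ratio of 0.937 (0.911 to 0.963). HOXA10, known from the uterus, was at 28.1 and 25.0 CPM (4757 and 5220 UMIs), a ratio of 0.887 (0.853 to 0.923). HOXA9, a regulator of blood precursors, was at 14.4 and 18.0 CPM (2428 and 3762 UMIs), a ratio of 1.25 (1.19 to 1.32). HOXB9 and HOXD10, by contrast, had only 5 and 7 UMIs in the untreated library, so within group 9 and group 10 the HOXA and HOXC members made up nearly all of the sum.

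HOXC10, a gene of the lumbar level, lay just under the 5 CPM minimum and had the smallest ratio of the 22 HOX genes at 1 CPM or more. It had 820 UMIs in the untreated and 483 in the TGFB1 library, or 4.85 and 2.31 CPM, a ratio of 0.476 (0.425 to 0.534). Its neighbour HOXC11 was at 2.11 and 1.60 CPM, a ratio of 0.759 (0.651 to 0.883), and HOXD9 at 1.69 and 1.14 CPM, a ratio of 0.675 (0.566 to 0.805). With a minimum of 1 CPM, 4 of 22 HOX genes were higher (HOXA4, HOXA5, HOXB5 and HOXC5) and HOXC10 was the 1 lower gene, beside 8.82% and 18.5% of all genes. Thinned cells held a HOXC10 UMI in 3.43% of cases without TGFB1 and in 1.68% with it, and at full depth the shares were 9.06% and 3.64%.

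**Figure D2:**
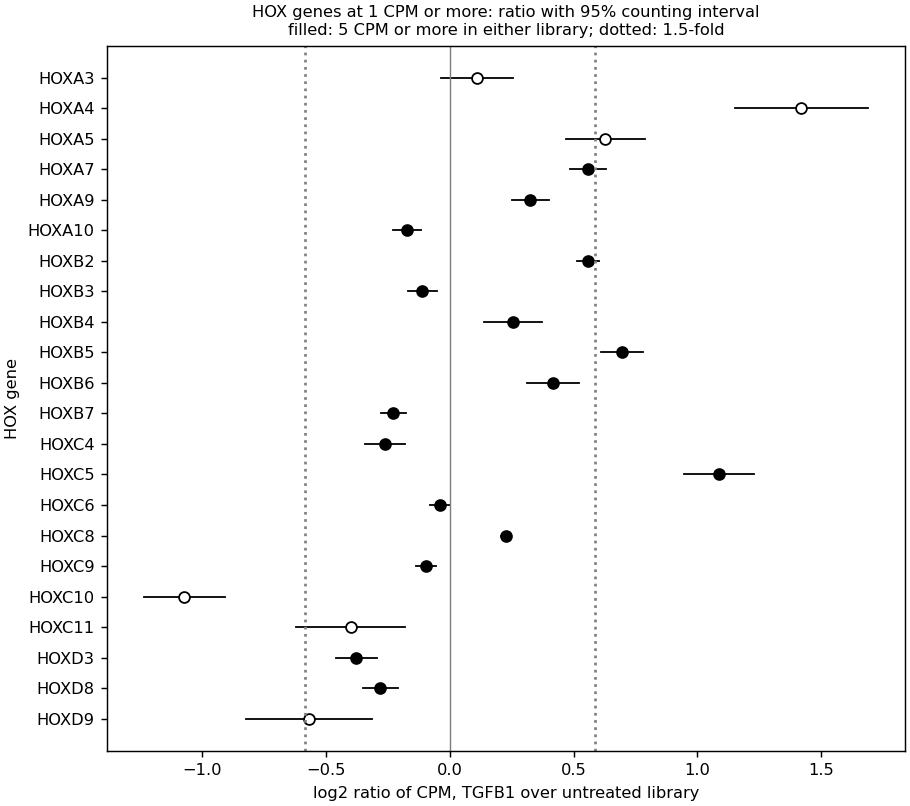
Log2 ratio of CPM, TGFB1 over untreated (horizontal axis), for the 22 HOX genes at 1 CPM or more (vertical axis), with 95% counting intervals; filled points reached 5 CPM in either library and dotted lines mark 1.5-fold. HOXC5 and HOXB5 are the filled points right of the upper line, and HOXC10, an open point, lies far left at 0.476-fold.

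The 14 genes below 1 CPM held few UMIs, from HOXA6 (131 and 203) down to HOXB13 and HOXD13 (1 and 1 each). Some were near 0 untreated and higher with TGFB1: HOXB9 had 5 and 71 UMIs, HOXD10 7 and 55, HOXD11 9 and 61 and HOXD1 17 and 68. These 4 stayed at or below 0.340 CPM in the TGFB1 library. HOXD4 (82 and 94), HOXA11 (69 and 101), HOXA2 (34 and 41) and HOXC13 (6 and 12) had intervals that included a ratio of 1, and HOXA13 had 0 and 4 UMIs.

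Nearly every cell carried HOX transcripts, and single cells drew on several clusters. After thinning, 97.8% of untreated and 98.4% of TGFB1 cells held at least 1 HOX UMI (98.2% and 95.7% before), with a median of 3 different HOX genes in both (6 and 5 before). A HOXC UMI was seen in 88.9% and 91.7% of thinned cells, a HOXB UMI in 57.8% and 64.0%, a HOXA UMI in 37.9% and 41.5% and a HOXD UMI in 21.9% and 18.2%. The unthinned shares were 96.3% and 90.6%, 83.7% and 76.4%, 67.0% and 60.1%, and 46.6% and 33.5%. All 4 clusters were seen together in 4.68% and 4.50% of thinned cells (30.9% and 22.2% before). No cell type in the libraries is known to be free of HOX transcripts, so the share of cells that free RNA alone would give could not be measured, and 18 barcodes occurred in both libraries.

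Cell clusters are those of the authors' deposited cell table (resolution 0.4), used by number. They were built from all genes of these cells, HOX genes among them, so a cluster against the rest of its own library is a description. The 5 untreated clusters with at least 50 cells were numbers 1 (3687 cells), 2 (3094), 6 (842), 7 (274) and 9 (108). In the TGFB1 library 9 were used: 0 (5303), 3 (2543), 4 (2421), 5 (1218), 8 (348), 7 (303), 9 (183), 10 (113) and 1 (56). Only clusters 1, 7 and 9 thus had enough cells in both libraries.

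The HOX total and the leading genes varied little from cluster to cluster. The total ran from 521 CPM (cluster 7) to 597 CPM (cluster 9) in the untreated library and from 524 CPM (cluster 1) to 650 CPM (cluster 4) in the TGFB1 library. HOXC8 was the highest HOX gene in each of the 14 groups, between 160 and 222 CPM untreated and between 174 and 262 CPM with TGFB1. HOXC9 ran from 46.2 to 61.9 CPM untreated and from 36.9 to 63.4 CPM with TGFB1, and HOXC6 from 49.99 to 61.0 CPM and from 44.1 to 56.7 CPM. HOXB7 ran from 25.4 to 39.5 CPM and from 24.8 to 34.9 CPM, and HOXA10 from 19.8 to 33.9 CPM and from 22.0 to 32.0 CPM. The broad pattern was therefore present in every cluster.

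The remaining leading genes spread more. HOXB2 ran from 30.2 CPM (cluster 7) to 46.8 CPM (cluster 6) in the untreated library and from 26.9 CPM (cluster 1) to 71.2 CPM (cluster 8) in the TGFB1 library. HOXA7 ran from 9.20 CPM (cluster 7) to 21.3 CPM (cluster 9) and from 14.5 CPM (cluster 10) to 33.7 CPM (cluster 8). HOXB3 had the widest range of the leading 8, from 14.9 CPM (cluster 2) to 46.2 CPM (cluster 9) untreated and from 14.8 CPM (cluster 4) to 40.0 CPM (cluster 9) with TGFB1. The highest HOXB3 value was thus in the same cluster, number 9, in both libraries.

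Against the rest of the library, clusters called between 0 and 8 HOX genes at 1.5-fold. In the untreated library these were 3 of 16 in cluster 1 (HOXB3, HOXC4 and HOXD3 higher, beside 22.9% of all genes either way), 4 of 16 in cluster 2 (HOXB3, HOXB4, HOXC4 and HOXD3 lower, beside 33.9%) and 1 of 15 in cluster 6 (HOXB6 higher, beside 22.7%). Cluster 7 had 5 of 16 (HOXC10 higher and HOXA7, HOXB3, HOXB5 and HOXB6 lower, beside 19.9%) and cluster 9 had 8 of 19, all higher (HOXA3, HOXA5, HOXA6, HOXA7, HOXB3, HOXB4, HOXD3 and HOXD9), beside 34.2%. In the TGFB1 library, clusters 0, 3 and 5 called none (beside 7.25%, 8.59% and 4.32%). Cluster 4 had 3 of 16 (HOXC5 higher and HOXB3 and HOXD3 lower, beside 32.8%), cluster 7 had 3 of 17 (HOXC10 higher and HOXB5 and HOXB6 lower, beside 13.3%) and cluster 8 had 4 of 18 (HOXA5, HOXA7, HOXA9 and HOXB6 higher, beside 20.7%). Cluster 9 had 4 of 18 (HOXA3, HOXA5 and HOXB3 higher and HOXC5 lower, beside 23.3%) and cluster 10 had 4 of 18 (HOXB4 and HOXD8 higher and HOXB2 and HOXB5 lower, beside 17.5%). The small cluster 1 had 6 of 18 (HOXD3 higher and HOXA9, HOXB2, HOXB5, HOXB6 and HOXC5 lower, beside 32.6%). Each share counts both directions, and a gene was measured here from 5 CPM in the cluster or in the rest. In untreated cluster 9, HOXA3, HOXA5, HOXA6 and HOXD9 reached 5 CPM only in the cluster, so they could be called only higher. The same held for HOXA3 and HOXA5 in TGFB1 cluster 9 and for HOXC10 in cluster 7. HOXB5 and HOXB6 in untreated cluster 7 reached it only in the rest.

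**Figure D3:**
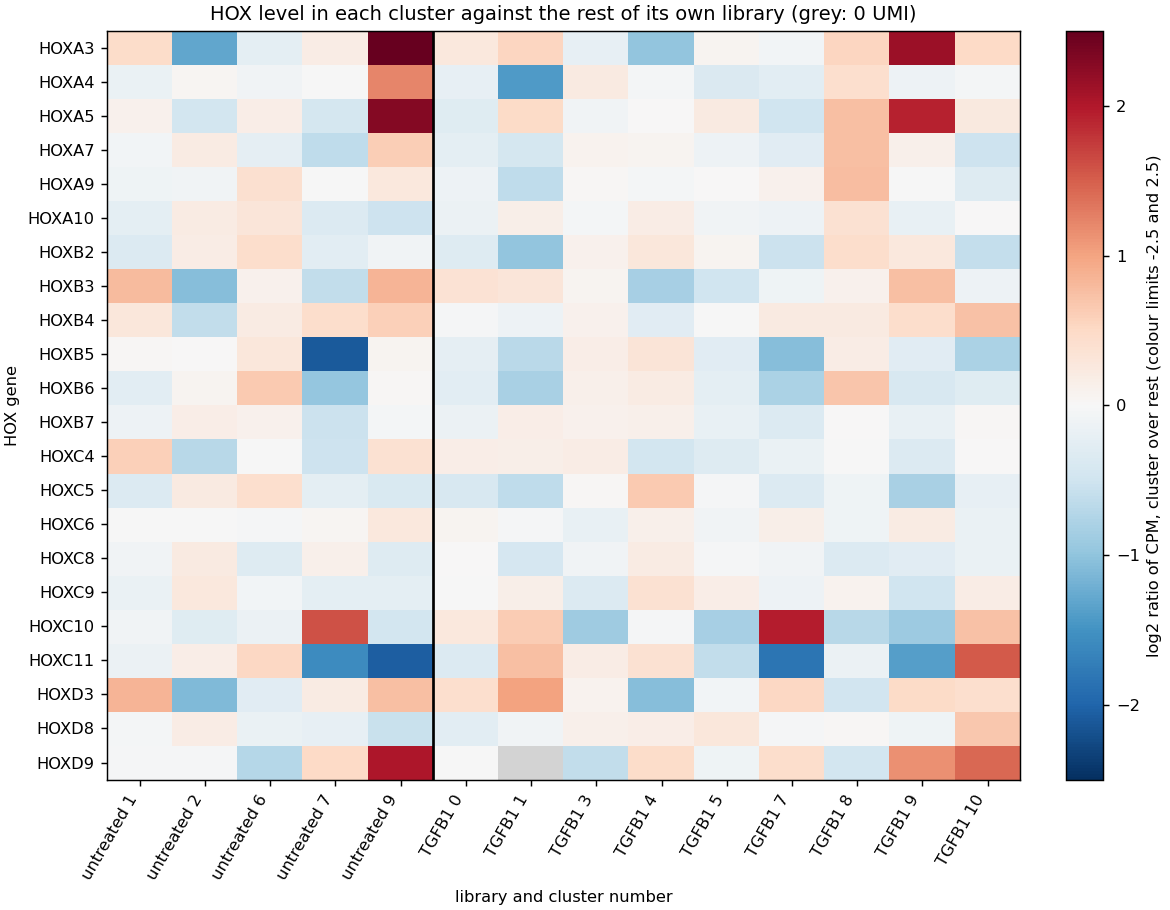
Log2 ratio of CPM in each cluster over the rest of its own library (colour, limits -2.5 and 2.5), for the 22 HOX genes at 1 CPM or more (rows) and the 14 groups of a library and a cluster (columns; grey marks 0 UMI). HOXA3 and HOXA5 are deep red in cluster 9 of both libraries, and HOXC10 is red and HOXB5 blue in cluster 7 of both.

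HOXA3 and HOXA5 were the highest in cluster 9 in both libraries. HOXA3 was at 34.5 CPM in untreated cluster 9 against 3.63 CPM in the rest (68 UMIs, ratio 9.52, 7.30 to 12.2), and at 18.0 against 4.09 CPM with TGFB1 (58 UMIs, ratio 4.39, 3.31 to 5.73). In the other clusters HOXA3 lay between 1.99 and 6.27 CPM. The share of all genes set apart in this way was not worked out. HOXA5 was at 13.7 against 2.80 CPM (27 UMIs, ratio 4.90, 3.19 to 7.22) and at 16.4 against 4.34 CPM (53 UMIs, ratio 3.78, 2.81 to 4.99), again above all other clusters. HOXA6 (13 and 5 UMIs) had ratios of 9.35 untreated and 1.61 with TGFB1, and HOXD9 (13 and 8 UMIs) 4.06 and 2.22. With TGFB1 both were higher in cluster 10. The other group 5 genes were not raised, with ratios of 1.05 and 0.825 for HOXB5 and 0.771 and 0.574 for HOXC5. Of the thinned cells of cluster 9, 22.4% without and 6.11% with TGFB1 held a HOXA3 UMI (36.1% and 25.1% at full depth), against 2.72% and 2.69% over the libraries. Inside cluster 9, HOXA3 was thus lower with TGFB1, at a ratio of 0.520 (0.360 to 0.750), while HOXA5 had a ratio of 1.20 (0.740 to 1.98) whose interval included 1.

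The other paralogues of group 3 were also high there: HOXB3 at 46.2 against 25.8 CPM (ratio 1.79, 1.44 to 2.21) and 40.0 against 23.8 CPM (1.68, 1.40 to 2.00), and HOXD3 at 23.4 against 13.9 CPM (1.69, 1.23 to 2.26) and 14.9 against 10.7 CPM (1.39, 1.02 to 1.85). Non-coding RNAs that overlap the head-ward HOXA genes moved with them. HOXA-AS2 was at 10.2 CPM in untreated and 8.98 CPM in TGFB1 cluster 9 (5.25 and 4.60 times the rest) and HOXA-AS3 at 6.10 and 3.41 CPM (5.79 and 2.82 times). HOTAIRM1, a non-coding RNA at the head-ward end of the HOXA cluster, was at 16.3 and 22.0 CPM (2.38 and 1.94 times). Both antisense genes share exon stretches with HOXA3, and no source used here states whether the counting used strand.

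Cluster 9 kept the stromal markers, 10 of 10 at 5 CPM or more and 28192 and 28380 CPM in sum. Its mural sum was 104 and 61.3 CPM, its endothelial sum 22.9 and 20.8 CPM, its epithelial sum 310 and 147 CPM (KRT19 at 303 and 142 CPM), and its immune sum 28.4 and 23.5 CPM with LYZ, CD3E, CD79A and TYROBP at 0. Of the 7 endothelial markers, EGFL7 (14.7 and 10.5 CPM) and TEK (7.11 and 9.60 CPM, against 0.538 and 0.560 CPM over the libraries) were at 5 CPM or more, and VWF, CLDN5 and KDR were at 0 UMI in both libraries. Its melanocyte and neural crest sum was 110 CPM untreated, of which MITF made up 105 CPM, and 29.7 CPM with TGFB1. The part of these markers in the HOX values was not tested. Long genes were higher in cluster 9 in general: 27.9% of genes spanning at least 30 kb and 13.1% of shorter ones were at least 1.5-fold higher in the untreated library, and 22.9% and 9.19% in the TGFB1 library. Of the HOX genes called higher in the untreated cluster, HOXA3 (46.4 kb), HOXB3 (56.0 kb) and HOXD3 (36.5 kb) span at least 30 kb. HOXA5 (2.62 kb), HOXA6 (5.21 kb), HOXA7 (4.22 kb), HOXB4 (4.60 kb) and HOXD9 (2.22 kb) are shorter, and the part of span in these values was not tested.

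Cluster 7 stood out for HOXC10. HOXC10 was at 13.6 CPM in untreated cluster 7 against 4.48 CPM in the rest (93 UMIs, ratio 3.03, 2.42 to 3.77) and at 8.27 against 2.12 CPM with TGFB1 (54 UMIs, ratio 3.90, 2.88 to 5.19). No other cluster exceeded 4.70 CPM untreated or 3.80 CPM with TGFB1. It was seen in 10.1% and 6.72% of the cluster's cells after thinning (25.5% and 15.8% before). HOXC10 spans 5.22 kb, and in cluster 7 the share of higher genes was 9.25% for long and 7.25% for shorter genes untreated, and 9.61% and 5.97% with TGFB1.

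In the same cluster several HOXB genes were low. HOXB5 was at 2.34 against 10.0 CPM untreated (16 UMIs, 4.29-fold lower, 2.63 to 7.52) and at 7.66 against 16.0 CPM with TGFB1 (50 UMIs, 2.09-fold lower, 1.58 to 2.82). HOXB6 was at 3.65 against 7.15 CPM and at 5.51 against 9.49 CPM. The antisense RNA HOXB-AS3, which overlaps HOXB5 and HOXB6, was at 2.92 and 5.97 CPM, 0.209 and 0.614 times the rest. HOXC11, the neighbour of HOXC10, did not follow it and was at 0.459 CPM (3 UMIs) in TGFB1 cluster 7, the lowest of that library. Stromal markers in cluster 7 summed to 34119 and 32928 CPM, with 10 of 10 at 5 CPM or more, mural markers to 52.6 and 48.4 CPM, and endothelial ones to 22.2 and 17.3 CPM with PECAM1, CDH5, CLDN5 and KDR at 0 UMI in both libraries. Nearly all of the endothelial sum was EGFL7, at 21.6 and 16.4 CPM against 13.1 and 7.96 CPM over the libraries. Epithelial markers summed to 308 and 131 CPM, of which KRT19 made up 301 and 125 CPM. Their part was not tested.

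**Figure D4:**
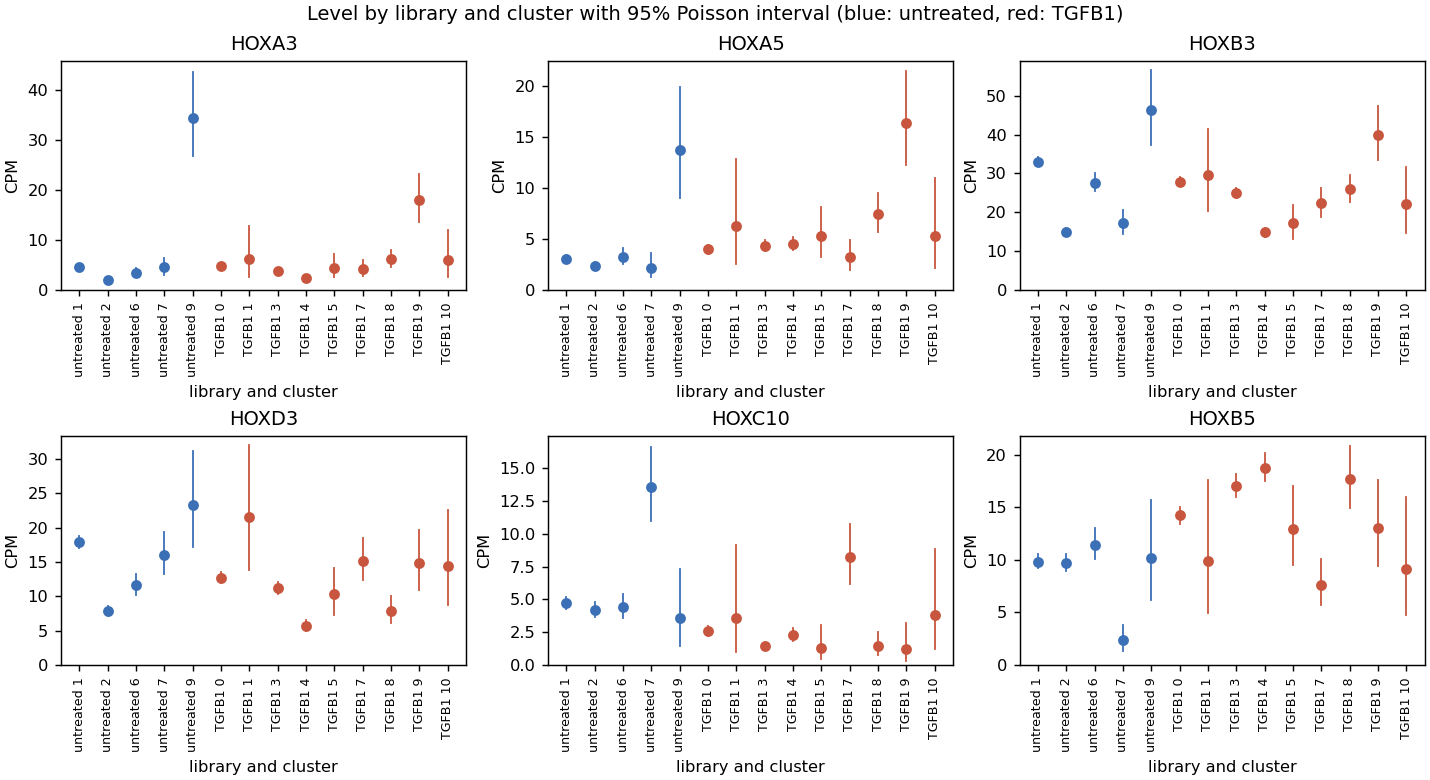
CPM of HOXA3, HOXA5, HOXB3, HOXD3, HOXC10 and HOXB5 (vertical axes, from 0) in each group of a library and a cluster (horizontal axes; blue untreated, red TGFB1), with 95% Poisson intervals. HOXA3 and HOXA5 peak in cluster 9 (34.5 and 13.7 CPM untreated), HOXC10 peaks in cluster 7 (13.6 CPM untreated), and HOXB3 and HOXD3 are lowest in clusters 2 and 4.

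Clusters 2 (untreated) and 4 (TGFB1) were low in the group 3 genes. HOXD3 was at 7.82 against 16.8 CPM in untreated cluster 2 and 5.71 against 12.0 CPM in TGFB1 cluster 4. HOXB3 was at 14.9 against 31.2 CPM and 14.8 against 26.4 CPM. HOXA3 was at 1.99 against 4.92 CPM and 2.42 against 4.77 CPM. HOXC4 was called lower in cluster 2 (ratio 0.62) and not in cluster 4 (ratio 0.73), and so was HOXB4, at 4.22 against 6.49 CPM (ratio 0.651) and 5.88 against 7.14 CPM (ratio 0.824). The group 3 genes, HOXC4 (39.1 kb) and HOXC6 (40.2 kb) are the HOX genes at 1 CPM or more that span at least 30 kb. HOXC6 was not low in either cluster, with ratios of 1.00 and 1.09, and HOXB4 spans only 4.60 kb.

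Over all genes with a known span, 50.2% of those of at least 30 kb and 7.48% of shorter ones were at least 1.5-fold lower in untreated cluster 2, and 48.4% and 5.93% in TGFB1 cluster 4. Between libraries the shares lower with TGFB1 were 12.9% and 14.9%, a smaller gap in the opposite direction. Gene span was looked at after the cluster values had been seen, and its part in the values of HOXA3, HOXB3, HOXD3 and HOXC4 was not tested. HOXC5 in TGFB1 cluster 4, at 9.84 against 6.26 CPM (ratio 1.57, 1.40 to 1.76), was the 1 HOX gene called higher there. GENCODE lists 2 entries under that symbol, a protein-coding one from 54032853 to 54035358 (2.51 kb, the span used) and a longer transcript from 54017110 to 54035361. The promoter window printed for HOXC5 lies before the longer one, and the counts do not show which entry the reads came from.

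**Figure D5:**
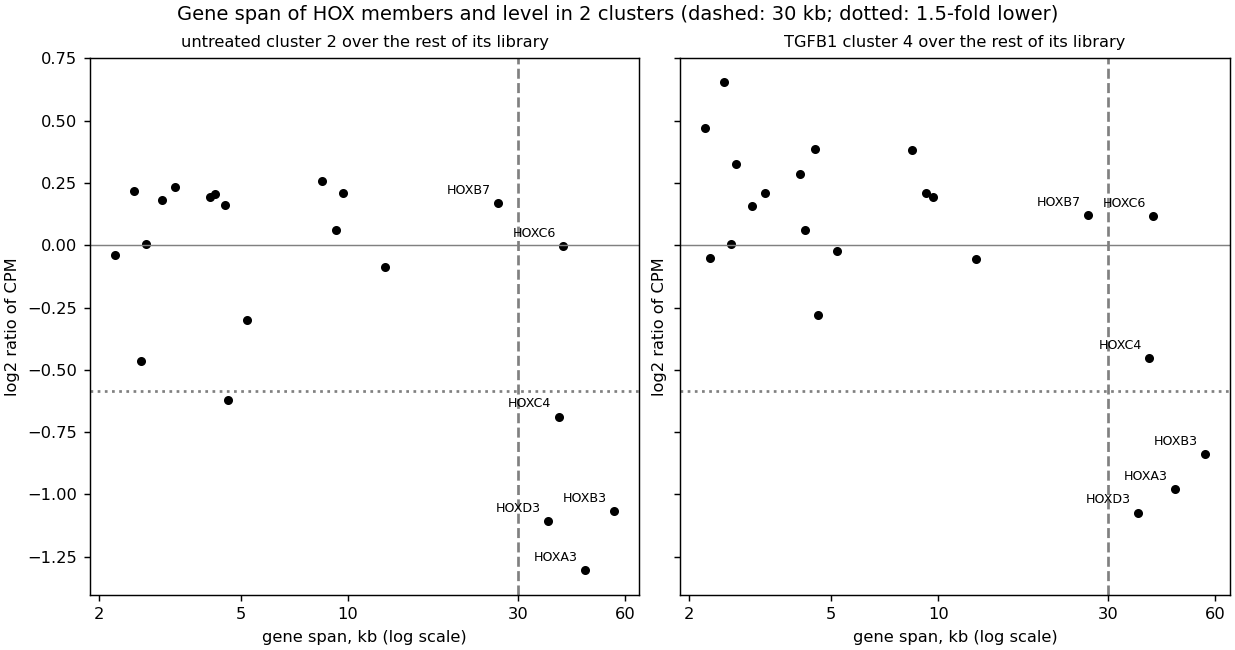
Log2 ratio of CPM over the rest of the library (vertical axis) against gene span in kb (log axis) for HOX genes at 1 CPM or more, in untreated cluster 2 (left) and TGFB1 cluster 4 (right); the dashed line marks 30 kb and the dotted line 1.5-fold lower. HOXA3, HOXB3 and HOXD3 lie low on the right of both plots, and HOXC6, at 40.2 kb, does not.

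Within clusters 1, 7 and 9, the intervals of the library ratios overlapped between clusters for HOXC5 and for HOXC10. For HOXB5 the intervals of clusters 1 and 7 did not overlap, by a small gap. HOXC5 had ratios of 1.55 (0.498 to 3.66) in cluster 1, 1.99 (1.11 to 3.67) in cluster 7 and 1.59 (0.531 to 5.68) in cluster 9. HOXC10 had ratios of 0.762 (0.207 to 1.97), 0.609 (0.427 to 0.860) and 0.349 (0.0748 to 1.37). HOXB5 had a ratio of 1.00 (0.498 to 1.80) in cluster 1, 3.28 (1.83 to 6.16) in cluster 7 and 1.28 (0.735 to 2.30) in cluster 9. HOXB2 in cluster 9 had a ratio of 1.86 (1.40 to 2.49), from 34.0 to 63.2 CPM, and in cluster 1 a ratio of 0.847 (0.570 to 1.21). Cluster 1 held 56 cells and cluster 9 held 183 cells in the TGFB1 library, and most intervals there included 1.

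Of the listed long non-coding RNAs of the HOX clusters, 4 reached 5 CPM and 1 of these, HOTAIRM1, passed 1.5-fold, on the higher side. Of all measured genes, 8.45% were higher and 14.2% lower. In the HOXC cluster, HOXC-AS1 was at 4.44 and 2.00 CPM, HOTAIR at 1.71 and 0.856 CPM and FLJ12825 at 1.67 and 0.895 CPM. Their ratios were 0.450, 0.501 and 0.536. HOTAIR, known for its link to polycomb silencing, runs antisense from within the span of HOXC11 towards HOXC12. None of the 6 on the HOXC list reached 5 CPM, and HOXC13-AS, at 6 and 26 UMIs, had a ratio of 3.50 (1.41 to 10.4). In the HOXA cluster, HOTAIRM1 was at 6.93 and 11.5 CPM, a ratio of 1.66 (1.55 to 1.78), and HOXA10-AS at 7.84 and 10.3 CPM. HOXA-AS2 (ratio 1.02, 0.880 to 1.17) and HOXA-AS3 (1.12, 0.924 to 1.36) had intervals that included 1, and HOXA11-AS, at 65 and 39 UMIs, had a ratio of 0.485 (0.318 to 0.733). HOXB-AS3 was at 13.5 and 9.61 CPM and HOXD-AS2 at 21.8 and 21.7 CPM.

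The TALE homeodomain genes encode proteins that bind DNA together with HOX proteins. Of 9, 7 were measured, none was at least 1.5-fold higher and 1 was lower, beside 8.45% and 14.2% of all measured genes, with a median log2 ratio of -0.27. The lower one was MEIS2, at 375 and 174 CPM. PBX2 was at 9.06 and 6.16 CPM, and PKNOX1, a related cofactor, at 20.2 and 28.5 CPM.

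The chromatin regulators that keep HOX genes off or on differed little between the libraries. Of 14 measured polycomb genes, which maintain silencing, none was higher and CBX6 (48.2 and 31.5 CPM) was the 1 lower gene. Of all measured genes, 8.45% were higher and 14.2% lower. The median log2 ratio of the 14 polycomb genes was -0.12. Among the others, EZH1 was at 18.4 and 14.3 CPM and EED at 12.5 and 10.0 CPM. Of 14 measured trithorax and related genes, which maintain activity, none was higher and PSIP1 (88.7 and 54.2 CPM) was lower, beside the same shares. Their median was -0.10. Both medians lay close to the -0.10 of all genes.

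Retinoic acid, made from vitamin A, switches on head-ward HOX genes in embryos. Of the 8 measured genes of its synthesis, transport and receptors, 4 were at least 1.5-fold lower with TGFB1 and 0 higher, beside 14.2% and 8.45% of all measured genes (9.75% and 11.8% with TMM factors). The median log2 ratio was -0.60. The synthesis enzyme ALDH1A3 was at 42.8 and 6.92 CPM, the retinol dehydrogenase RDH10 at 505 and 233 CPM, the retinal reductase DHRS3 at 393 and 190 CPM, and the receptor RARG at 23.0 and 12.8 CPM.

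Among other positional regulators, the forelimb gene TBX5 was present and hindlimb genes were near 0. Of 28 limb and trunk genes, 15 were measured, 3 of them higher with TGFB1 and 2 lower, beside 8.45% and 14.2% of all measured genes, with a median of -0.22. TBX5, the forelimb gene, was at 19.8 and 36.2 CPM, whereas the hindlimb genes TBX4 (0.0296 and 0.0287 CPM) and PITX1 (0.118 and 0.0526 CPM) were near 0. TBX3 was at 25.1 and 42.0 CPM and EN1 at 24.4 and 36.9 CPM, the other higher members. HAND2 (22.6 and 10.9 CPM) and TBX18 (22.6 and 13.1 CPM) were lower.

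Of 20 genes that pattern the head and face, 3 were measured, among them MSX1 (22.4 and 21.6 CPM). The other 17 included OTX2, a forebrain gene, at 0 UMI in both libraries. Of 9 genes of the CDX and ParaHOX families and their kin, which control or resemble HOX genes, none reached 5 CPM and 6 had no UMI.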

How the data were processed

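Per the labels, 2 single-cell libraries of adipose-derived mesenchymal stem cells were made, untreated and with TGFB1, and GRCh38, Seurat and Cell Ranger 9.0.1 are named, without roles, per the submitters' processing notes. The aligner, annotation and counting settings are not stated there. Raw UMI counts make up the deposited matrix, for 38606 genes and 20656 cells, and the deposited cell table gives the counts of UMIs and genes and the percent of mitochondrial UMIs per cell, with the library and cluster. Matrix sums equalled the table in all 20656 cells.

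UMIs were summed by library, or by library and cluster with at least 50 cells, and scaled to CPM. A gene counted as measured from 5 CPM in either library and as higher or lower from 1.5-fold. Sums carry exact Poisson, ratios exact conditional binomial (Clopper-Pearson) and shares exact binomial 95.0% intervals. With 1 library per group no test was possible and no p-value was computed. Shares of cells were also taken after thinning each cell to 7500 UMIs. No doublet caller was run: deposited cells were all kept, and an alternative left out the 5% of cells with the most UMIs. Whole HOX genes were described by full values from 5 CPM, the 8 with the highest mean also by cluster, and up to 4 members of each other list by the largest log2 ratio. Genes below 5 CPM, HOXA3, HOXA5 and HOXC10 by cluster, other list members and non-coding RNAs were named after their values were seen. A few genes covered by these choices are left out of the text. The members and lists were chosen with earlier results of these data known. Gene positions came from GENCODE 29 and promoters from RefSeq (GRCh38.p14).

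On simulated counts for TGFB1 against untreated, over 10928 genes, all 100 genes raised 2-fold and all 100 lowered 2-fold were called, with 0 unchanged genes called, and 95.0% of intervals held the true ratio. That checked the calculation only. TMM factors came from edgeR 4.0.16 in R 4.3.3, and all else from Python 3.11.15 with pandas 2.3.3, scipy 1.17.1, numpy 2.4.6 and matplotlib 3.10.9. Alternatives were 2 other scalings, equal weight per cell, thinning, other minimums and thresholds, subsets of cells, and the comparison within single clusters.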

Additional observations from a re-analysis of the deposited data

How the results depend on the processing

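The 2 HOX genes at least 1.5-fold higher and 0 lower were found again with equal weight per cell, thinned cells, cells of at least 1000 genes, without cluster 5, without clusters 7, 9 and 10, and without the 5% of cells with the most UMIs. TMM factors (1.06 and 0.948) gave 4 higher and median-of-ratios factors (1.07 and 0.936) 5, which follows from the shift of all ratios. A minimum of 1 CPM gave 4 higher and 1 lower of 22 HOX genes, beside 8.82% and 18.5% of all genes. With a minimum of 20 CPM, 0 of 8 HOX genes were higher and 0 lower, beside 9.55% and 11.4%. A 2-fold threshold gave 1 higher (HOXC5) and 0 lower of 16, beside 3.61% and 6.05%. Without cells with an MKI67 or TOP2A UMI, 1 of 17 HOX genes was lower (HOXC10, which then passed 5 CPM), beside 13.2% of all genes. Within cluster 1 there were 1 higher and 0 lower of 17, beside 6.42% and 6.87% of all genes. Within cluster 7 there were 4 higher and 1 lower of 17, beside 5.03% and 4.95%. Within cluster 9 there were 1 higher and 5 lower of 19, beside 9.69% and 17.8%. The cause was not tested, and few cells stand behind these. Of 367 values over 15 settings, 223 stayed close to the main one and 144 moved. For the log2 ratio of a gene or sum, close meant inside the main counting interval. For a count of called genes it meant equal or within 1.5-fold, and for the median log2 ratio within a fixed margin. Over these settings the log2 ratio of HOXC5 ran from 0.63 to 1.28, that of HOXB5 from 0.00 (cluster 1) to 1.71 (cluster 7) and that of HOXC10 from -1.52 to -0.39. No paired analysis was possible because each group has 1 library. Depth limits what can be said of the genes below 1 CPM and of clusters 1, 9 and 10 in the TGFB1 library, where many HOX sums were below 20 UMIs.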

Other observations

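Positional genes outside the HOX family also differed between cell clusters, and these values are descriptions for the same reasons as those of the HOX genes. In cluster 9, where HOXA3 and HOXA5 were highest, the orphan nuclear receptor NR2F2 was at 171 CPM without and 90.5 CPM with TGFB1 (2.14 and 1.49 times the rest of each library) and GATA6 at 133 and 119 CPM (1.75 and 1.94 times). PKNOX2, a TALE gene that was low over whole libraries, at 0.527 and 1.31 CPM, was at 6.60 and 6.51 CPM in cluster 9 (14.5 and 5.29 times). It was at 4.53 and 4.90 CPM in cluster 7 (12.7 and 4.10 times), and at 10.6 CPM in cluster 10 of the TGFB1 library (14 UMIs, 8.50 times).

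In cluster 7, where HOXC10 was highest, the homeobox gene EMX2 was at 0.876 CPM untreated (6 UMIs, 0.204 times the rest) and 0.919 CPM with TGFB1 (6 UMIs, 0.345 times). TBX3 was also low there, at 11.3 and 25.1 CPM (0.442 and 0.591 times). In cluster 10 of the TGFB1 library, NR2F2 was at 203 CPM (3.38 times the rest, 2.98 to 3.81), EMX2 at 9.89 CPM (13 UMIs, 3.82 times) and TBX5 at 12.9 CPM (17 UMIs, 0.356 times). Mural markers summed to 291 CPM in that cluster, with 7 of 8 at 5 CPM or more and MYH11 at 144 CPM, against 48.4 to 61.3 CPM in clusters 7 and 9 of that library, and their part in these values was not tested. These genes were chosen after their values were seen.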
